A study of Mus musculus with 6 samples.

Results

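Iron handling genes were examined in gonadal white adipose tissue (gWAT), the fat pad beside the reproductive organs, of mice on normal chow (NCD) and on a high-fat diet (HFD). The 10 genes were chosen by symbol for their known part in moving, storing and releasing iron. They were *Trf*, *Tfrc*, *Slc11a2* and *Steap4* for uptake, *Fth1*, *Ftl1* and *Ncoa4* for storage, *Slc40a1* for export, and *Slc11a1* and *Hmox1* for the iron that macrophages recover. All 10 were found among the 19790 genes of the count table, and all 10 passed the filter on low counts together with the rest of the 15241 genes tested.

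The samples were 6 wild-type C57BL/6 mice, 3 kept on NCD and 3 on HFD for 8 weeks, with 1 RNA-seq library from the gWAT of each mouse. Neither diet group carried a labelled transgene, deletion or drug treatment. The sample labels put the start of the diets at 6 weeks of age, and the study's methods put it at 8 weeks. The methods describe male mice and also use the name WT for *Tmem86a* flox/flox animals without Cre, an allele that the labels of these 6 mice do not give.

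Library totals ran from 49575113 to 66360046 counts, so that 1 count equalled 0.0151 to 0.0202 CPM, the count scaled to a common library size. The labelled tissue was checked with 7 adipocyte markers, whose summed level was 11710 to 15400 CPM in HFD mice and 5379, 19850 and 27620 CPM in the NCD mice. Values by mouse are given in the order of replicates 1, 2 and 3 of each diet. These and all later CPM values were scaled between libraries by the trimmed mean of M-values (TMM). NCD replicate 1 stood apart because 11 secretory genes of the seminal vesicle, an accessory gland next to this fat pad, made up 58.6% of its counts. The same genes took 11.2% and 2.30% in NCD replicates 2 and 3 and at most 1.21e-05% in any HFD mouse. For that reason each comparison is given with all 6 mice and again without NCD replicate 1. Secretory RNA remained in both other NCD libraries and was confounded with diet.

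Cells take up iron bound to transferrin through the transferrin receptor, reduce it, carry it into the cytosol, and keep what is not used inside a ferritin shell. Macrophages additionally gain iron from the cells they digest, by opening the heme ring and by pumping iron out of the phagosome, and they return it to the blood through ferroportin. Much of this is set after transcription. Iron regulatory proteins bind a hairpin in the messenger RNA, the iron responsive element, when iron is scarce, which blocks translation when the hairpin lies in the 5′ UTR and protects the message from decay when it lies in the 3′ UTR. An mRNA level therefore reads the receptor's arm of this control but not the translational arm on ferritin and ferroportin.

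The hairpins are shown because their place differs among the members with a match. A 3′ UTR site can stabilise the mRNA in this way, and a 5′ UTR site gates translation. The search was for a C, any 5 bases and then the loop CAGTGN, on the sense strand of GENCODE vM21 transcripts (GRCm38). The 5 bases on either side of the loop had to pair, with G-U pairs allowed. A match was held by 4 of the 10 members and by 294 of 21877 protein-coding genes (1.34%). Each site below is written 5′ to 3′ as 29 bases of sense-strand DNA, and capitals mark the bulged C and the 6 loop bases.
Slc40a1, 5′ UTR, chr1:45925465-45925493, minus strand: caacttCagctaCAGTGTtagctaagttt
Fth1, 5′ UTR, chr19:9982732-9982760, plus strand: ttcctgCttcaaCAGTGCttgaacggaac
Ftl1, 5′ UTR, chr7:45459779-45459807, minus strand: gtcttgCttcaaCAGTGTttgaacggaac
Tfrc, 3′ UTR, chr16:32631219-32631247, plus strand: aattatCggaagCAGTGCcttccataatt
Tfrc, 3′ UTR, chr16:32631598-32631626, plus strand: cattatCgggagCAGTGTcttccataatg
Tfrc, 3′ UTR, chr16:32631663-32631691, plus strand: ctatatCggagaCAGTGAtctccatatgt
Tfrc, 3′ UTR, chr16:32631710-32631738, plus strand: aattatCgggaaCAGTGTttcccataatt

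The 2 ferritin sites were identical at 26 of 29 bases. Only *Tfrc* among the 10 had more than 1 match, and 5 of all searched genes had 2 or more in the same transcript. The 4 *Tfrc* sites lay within the same 3′ UTR and shared 18 to 25 of 29 bases with each other. No match was found in *Hmox1*, *Slc11a1*, *Slc11a2*, *Trf*, *Steap4* or *Ncoa4*, which says only that these letters, with this pairing, were not in the transcripts searched. A hairpin that departs from this pattern would be missed, so these members are not shown to lack one.

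The comparison of HFD with NCD asked which iron genes differed between the fat pads of the diet groups. *Slc11a1* and *Hmox1*, the genes of phagosomal and heme iron, rose with HFD by 7.73-fold and 5.06-fold. The receptor *Tfrc* was lower in every HFD mouse in TMM-scaled CPM, and it missed the threshold in the edgeR fit on 6 mice. It passed without NCD replicate 1 and, with 6 mice, in DESeq2 (adjusted p = 0.00498). With libraries scaled by total counts alone it did not pass (log2 fold change -0.36, edgeR adjusted p = 0.632). The ferritin subunits *Fth1* and *Ftl1* were higher in every HFD mouse without passing. With all 6 mice, 2 of the 10 members passed an adjusted p of 0.05, both higher in HFD, by the quasi-likelihood F-test of edgeR, Benjamini-Hochberg adjusted over all genes tested. Of all 15241 genes, 7.47% passed, 5.58% higher and 1.9% lower. At an unadjusted p of 0.05, 3 of the 10 members passed, beside 4524 of all 15241 genes, a similar share. Without NCD replicate 1, 2 members were called higher and 1 lower, where 10.7% of genes were called higher and 10.1% lower. The median log2 fold change of the members was 0.34 with 6 mice, beside -0.08 over all genes tested, and it was 0.09 without NCD replicate 1, beside 0.02.

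**Figure D1:**
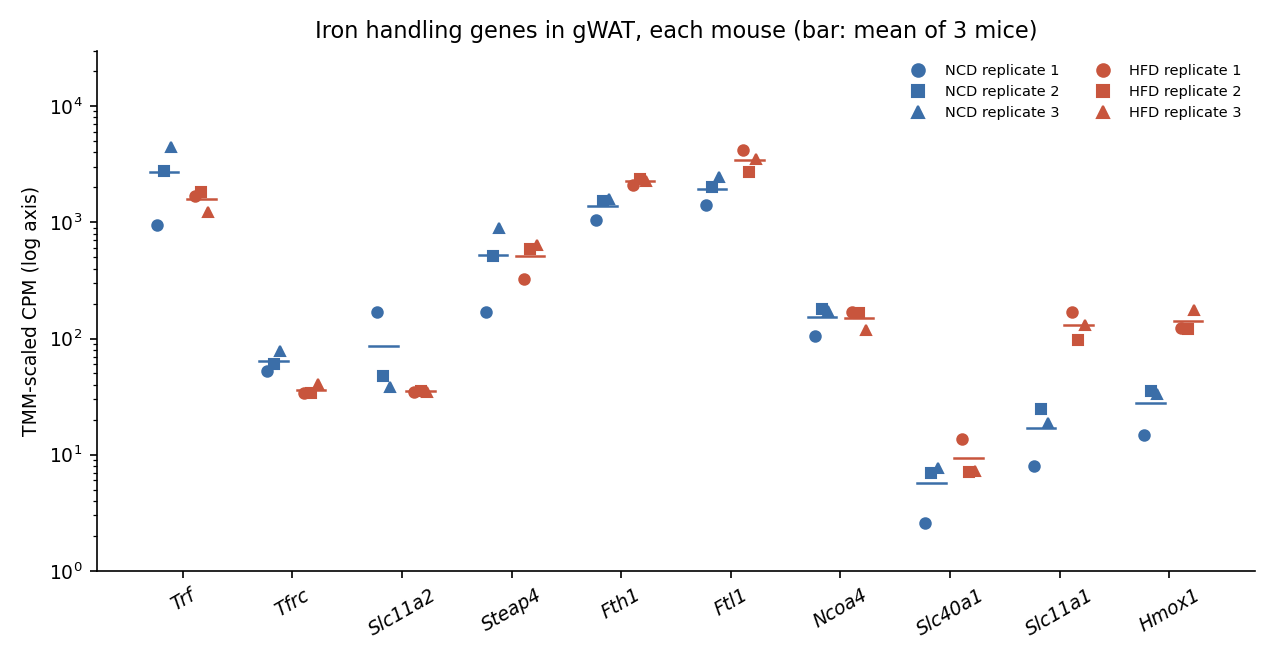
The TMM-scaled CPM of each iron handling gene is plotted on a shared log axis for the 3 NCD and 3 HFD mice. There is 1 point per mouse and a bar at the group mean. The HFD points of *Hmox1* and *Slc11a1* all lie above the NCD points, those of *Tfrc* lie below, and those of *Trf*, *Steap4*, *Ncoa4* and *Slc40a1* overlap between diets.

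Transferrin receptor 1 (*Tfrc*, chr16:32608920-32632794) binds iron-loaded transferrin and carries it into the cell. Its level was 53.1, 59.9 and 78.0 CPM in the NCD mice and 33.8, 34.2 and 40.7 CPM in the HFD mice. Every HFD mouse was below every NCD mouse, and the HFD values lay close together. The means were 63.7 ± 12.9 CPM (SD, n = 3) in NCD and 36.2 ± 3.87 CPM (SD, n = 3) in HFD, 1.76-fold higher in NCD. The log2 fold change was -0.81 with a standard error (SE) of 0.190 and an adjusted p of 0.0549 in edgeR's quasi-likelihood test, just short of the threshold. Without NCD replicate 1 it was -0.92 (SE 0.165, adjusted p = 0.0182 in the same edgeR test), 1.89-fold higher in NCD. Leaving out any of the other 5 mice kept the direction, with log2 fold changes of -0.89 to -0.63 and edgeR adjusted p of 0.108 to 0.195. With libraries scaled by total counts alone, the log2 fold change was -0.36 (edgeR adjusted p = 0.632), where the median over all genes was 0.45. The diets then overlapped, at 26.3, 61.2 and 83.7 CPM in NCD and 39.1, 43.0 and 51.5 CPM in HFD.

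Transferrin (*Trf*, chr9:103204001-103230444) is the iron carrier of plasma, made mainly by the liver. In the NCD mice it was read at 957, 2782 and 4451 CPM, and in the HFD mice at 1697, 1831 and 1239 CPM. The NCD mice spread so widely that the diets overlapped, with NCD replicate 1 below every HFD mouse and both other NCD mice above them. HFD differed from NCD by a log2 fold change of -0.78 (SE 0.606, edgeR adjusted p = 0.419). Without NCD replicate 1 it was -1.18 (SE 0.327, edgeR adjusted p = 0.0559), near the threshold but not past it. The summed adipocyte markers ordered the 3 NCD mice in the same way, at 5379, 19850 and 27620 CPM, and their part in the *Trf* values was not tested.

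The iron transporter DMT1 (*Slc11a2*, chr15:100387898-100425072) moves ferrous iron out of the endosome and, in the gut, into the body. The NCD mice had 171, 47.4 and 38.3 CPM, and the HFD mice 34.6, 35.7 and 34.8 CPM. All HFD values were below all NCD values, but NCD replicate 1 alone was far above the rest, 2.0 log2 units over the mean of the other NCD mice. The log2 fold change of -1.29 (SE 0.582, edgeR adjusted p = 0.200) shrank to -0.28 (SE 0.125, edgeR adjusted p = 0.167) without that mouse. Epithelial markers, 8 genes such as *Epcam* and *Krt8*, summed to 1396, 157 and 40.9 CPM in the NCD mice and to between 34.9 and 145 CPM in HFD mice. None of the 8 was called with 6 mice and 3 were called lower in HFD without NCD replicate 1, and their part in the *Slc11a2* value was not tested. *Slc11a2* was the only member that NCD replicate 1 held at the highest level of the NCD mice. In the other 9 it held the lowest.

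The metalloreductase STEAP4 (*Steap4*, chr5:7960457-7982213), abundant in adipocytes, reduces ferric iron and copper at membranes. The NCD mice gave 170, 513 and 901 CPM and the HFD mice 323, 584 and 642 CPM. The group means of 528 ± 366 and 516 ± 170 CPM (SD, n = 3 each) were close, and the values overlapped widely. With 6 mice the log2 fold change was -0.03 (SE 0.613, edgeR adjusted p = 0.979), and it was -0.44 (SE 0.386, edgeR adjusted p = 0.452) without NCD replicate 1. The SE leaves differences in either direction possible, and the sign turned under some alternatives.

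Ferritin heavy chain (*Fth1*, chr19:9980598-9985098) oxidises iron on its way into the ferritin shell. It stood at 1058, 1540 and 1587 CPM in NCD mice and at 2117, 2348 and 2284 CPM in HFD mice. The diets did not overlap, and the HFD mice varied little, at 2249 ± 119 CPM against 1395 ± 293 CPM (SD, n = 3 each). HFD exceeded NCD by 0.69 log2 units (SE 0.336) with an edgeR adjusted p of 0.227, and by 0.54 (SE 0.223) with an edgeR adjusted p of 0.139 without NCD replicate 1.

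Ferritin light chain (*Ftl1*, chr7:45457944-45459884) helps to form the mineral core. It reached 1411, 2007 and 2441 CPM in NCD mice and 4158, 2705 and 3513 CPM in HFD mice, again without overlap. The means were 1953 ± 517 and 3458 ± 728 CPM (SD, n = 3 each). The log2 fold change was 0.82 (SE 0.423, edgeR adjusted p = 0.247), and 0.65 (SE 0.312, edgeR adjusted p = 0.188) without NCD replicate 1. DESeq2 called both ferritin genes higher in HFD, with adjusted p of 0.0173 for *Fth1* and 0.0371 for *Ftl1*. GENCODE vM21 annotates 2 pseudogenes named after *Ftl1* and 1 named after *Ftl2*, and none of the 3 is in the count table. The sources read here do not say how reads shared with such copies were counted, so the *Ftl1* counts carry that uncertainty.

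Nuclear receptor coactivator 4 (*Ncoa4*, chr14:32159865-32179855) delivers ferritin to the lysosome, where its iron is freed. Its level was 106, 178 and 173 CPM in NCD mice and 170, 164 and 119 CPM in HFD mice. These values overlapped, the means being 152 ± 40.5 and 151 ± 28.1 CPM (SD, n = 3 each). Between diets the log2 fold change was -0.01 (SE 0.267, edgeR adjusted p = 0.985), and -0.20 (SE 0.181, edgeR adjusted p = 0.458) without NCD replicate 1.

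Ferroportin (*Slc40a1*, chr1:45908068-45926523) is the iron exporter of the cell surface. It was low, at 2.59, 6.96 and 7.63 CPM in the NCD mice and 13.7, 7.17 and 7.30 CPM in the HFD mice. HFD replicates 2 and 3 fell among the NCD values, and only HFD replicate 1 stood above them. With all mice the log2 fold change was 0.71 (SE 0.485, edgeR adjusted p = 0.365), and 0.37 (SE 0.331, edgeR adjusted p = 0.455) without NCD replicate 1. The smallest count of any member in any library was 85, so counting error was small beside the differences between mice.

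NRAMP1 (*Slc11a1*, chr1:74375195-74386062) is a phagosomal metal pump of macrophages and neutrophils. It stood at 7.94, 24.6 and 18.6 CPM under NCD and at 168, 96.4 and 131 CPM under HFD. The lowest HFD mouse was well above the highest NCD mouse. The means were 17.1 ± 8.43 and 132 ± 36.0 CPM (SD, n = 3 each). The log2 fold change was 2.95 (SE 0.463, edgeR adjusted p = 0.0253), and 2.63 (SE 0.288, edgeR adjusted p = 0.00686), a 6.17-fold rise, without NCD replicate 1. The call rested on all 5 other mice. Without NCD replicate 2, NCD replicate 3 or HFD replicate 1, 2 or 3 the log2 fold change was 2.74 to 3.31 with edgeR adjusted p of 0.0649 to 0.105.

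Heme oxygenase 1 (*Hmox1*, chr8:75093621-75100589) opens the heme ring and frees its iron, and it is induced by heme and oxidative stress. It stood at 14.9, 35.2 and 33.1 CPM under NCD and at 124, 122 and 176 CPM under HFD. Each HFD mouse was above each NCD mouse, whose means were 140.5 ± 30.8 and 27.7 ± 11.2 CPM (SD, n = 3 each). This was a log2 fold change of 2.34 (SE 0.373, edgeR adjusted p = 0.0254), and 2.06 (SE 0.217, edgeR adjusted p = 0.00667), a 4.16-fold rise, without NCD replicate 1. As with *Slc11a1*, the call was lost without NCD replicate 2, NCD replicate 3 or HFD replicate 1, 2 or 3, at log2 fold changes of 2.16 to 2.55 and edgeR adjusted p of 0.0670 to 0.108.

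**Figure D2:**
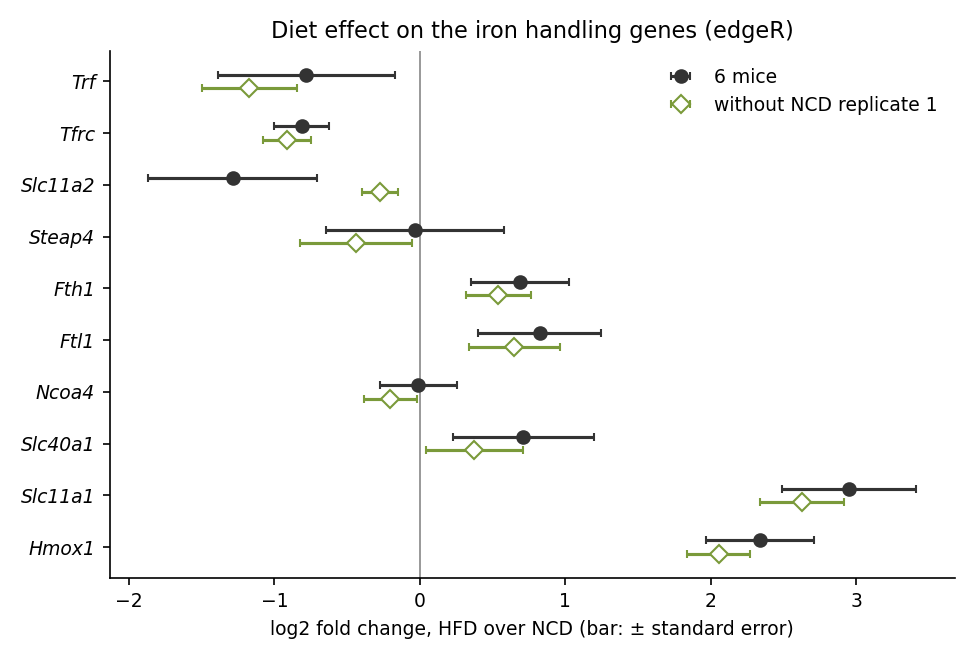
The log2 fold change of HFD over NCD is plotted for each of the 10 genes with its standard error, from the edgeR fit on 6 mice and from the fit without NCD replicate 1. *Slc11a1* (2.95) and *Hmox1* (2.34) lie far to the right in both fits, while *Slc11a2* moves from -1.29 to -0.28 when that mouse is left out.

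Over the 10 genes, in TMM-scaled CPM, 4 were higher in every HFD mouse, 2 were lower in every HFD mouse and 4 overlapped. Among all genes tested, 20.5% had every HFD mouse above and 18.7% every HFD mouse below, so 39.2% did not overlap.

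Levels were compared between genes only per length, in FPKM, the count per kilobase of exon scaled to the library total, computed here from the counts and the GENCODE vM21 exon lengths. FPKM was not TMM-scaled, so the secretory share of 58.6% in NCD replicate 1 lowers its values for other genes. The order of genes within a mouse does not depend on this scaling. *Ftl1* had the highest FPKM of the 10 genes in all 6 mice, at 722, 2119 and 2704 in NCD and 4970, 3514 and 4594 in HFD. *Slc40a1* had the lowest in all 6, at 0.380, 2.11 and 2.43 in NCD and 4.69, 2.67 and 2.74 in HFD. Storage thus stood above export by the widest margin at the mRNA level in each library. *Fth1* was at 337, 1010 and 1092 FPKM in NCD and 1572, 1895 and 1856 FPKM in HFD, and *Trf* at 172, 1034 and 1736 FPKM in NCD and 714, 838 and 571 FPKM in HFD. *Fth1* ranked behind *Ftl1* in all 3 HFD mice and in NCD replicate 1, and *Trf* took that place in NCD replicates 2 and 3. *Steap4* ranked 4 in every mouse.

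The lower part of the order differed between the diets. *Slc11a1* ranked 9, 8 and 8 of 10 in NCD replicates 1, 2 and 3 and 6 in each HFD mouse, at 1.70, 10.8 and 8.59 FPKM against 83.8, 52.2 and 71.5 FPKM. *Hmox1* ranked 8, 6 and 6 in NCD and 5 in each HFD mouse, at 4.71, 22.9 and 22.6 FPKM against 91.4, 97.4 and 142 FPKM. *Ncoa4* and *Tfrc* ranked 7 and 8 in every HFD mouse, below both. In NCD replicates 2 and 3 *Hmox1* already ranked above *Tfrc*, but below *Ncoa4*. *Ncoa4* was at 12.8, 44.4 and 45.4 FPKM in NCD and 48.1, 50.5 and 36.8 FPKM in HFD, and *Tfrc* at 5.06, 11.8 and 16.1 FPKM in NCD and 7.52, 8.27 and 9.91 FPKM in HFD. In HFD the ranges of neighbours overlapped for *Steap4* and *Hmox1* and for *Tfrc* and *Slc11a2* (6.98 to 7.83 FPKM), and in NCD, where replicate 1 read low for most members, most neighbours overlapped. With the longest transcript as length in place of all exons, *Tfrc* and *Slc11a2* changed places and the other 8 kept theirs.

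Ratios of 2 members within a library do not depend on how libraries are scaled to each other. With 3 mice against 3, the exact permutation test cannot give a two-sided p below 0.1. The receptor against the storage protein was 0.0501, 0.0389 and 0.0492 *Tfrc* counts per *Fth1* count in NCD and 0.0160, 0.0146 and 0.0178 in HFD. The ratio was lower in every HFD mouse, by 2.85-fold (log2 difference -1.51, exact permutation p = 0.1, n = 3 each), and by -1.45 log2 units without NCD replicate 1. NCD replicate 1 was close to NCD replicate 3 in this ratio, although its levels of both genes were the lowest of its group. This sets the mRNA with 4 matches to the hairpin pattern in its 3′ UTR against an mRNA with 1 match in its 5′ UTR. Neither gene passed the edgeR threshold by itself with 6 mice, and whether iron regulatory proteins had a part in the ratio was not tested.

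The ratio of the 2 ferritin chains did not separate the diets. There were 0.750, 0.767 and 0.650 *Fth1* counts per *Ftl1* count in NCD and 0.509, 0.868 and 0.650 in HFD, and the diets overlapped (log2 difference -0.13, exact permutation p = 0.7, n = 3 each). HFD replicate 1, with the highest *Ftl1* level, had the lowest ratio of all mice.

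The phagosomal pump against its endosomal relative gave the widest shift. *Slc11a1* counts per *Slc11a2* count were 0.0465, 0.519 and 0.487 in NCD and 4.87, 2.70 and 3.78 in HFD. Per exon length the ratios were 0.115, 1.28 and 1.2 in NCD and 12.0, 6.66 and 9.31 in HFD. The log2 difference was 4.02, a 16.2-fold higher ratio in HFD (exact permutation p = 0.1, n = 3 each), but NCD replicate 1 contributed much of it. Without that mouse the log2 difference was 2.87, and the diets remained apart.

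Export against uptake, as *Slc40a1* counts per *Tfrc* count, was 0.0488, 0.116 and 0.0977 in NCD and 0.405, 0.210 and 0.180 in HFD. The ratio was higher in every HFD mouse, by 3.02-fold (log2 difference 1.59, exact permutation p = 0.1, n = 3 each), and by 1.22 log2 units without NCD replicate 1. In TMM-scaled CPM *Slc40a1* by itself overlapped between the diets, while *Tfrc* did not.

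**Figure D3:**
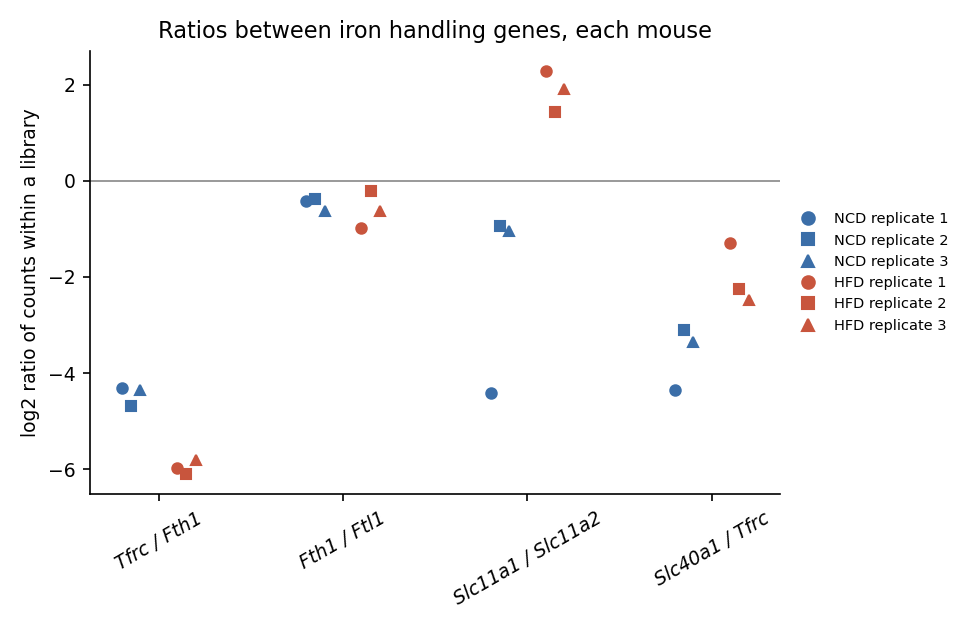
The log2 ratio of 2 members' counts within each library is plotted for the 3 NCD and 3 HFD mice, with 1 point per mouse. *Tfrc* to *Fth1* is lower and *Slc11a1* to *Slc11a2* and *Slc40a1* to *Tfrc* are higher in every HFD mouse, and *Fth1* to *Ftl1* overlaps.

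Macrophages take part in iron handling in fat tissue, and their markers differed between the diets. A list of 10 (*Adgre1*, *Cd68*, *Csf1r*, *Cd14*, *Lyz2*, *Itgam*, *Itgax*, *Mertk*, *Fcgr1*, *Mrc1*) summed to 422 to 947 CPM in NCD mice and 2399 to 3683 CPM in HFD mice. Of these, 4 were called higher in HFD with 6 mice and 9 without NCD replicate 1 by edgeR, and 9 of 10 were higher in every HFD mouse. Their median log2 fold change was 2.55, between those of *Hmox1* and *Slc11a1*. In bulk tissue, fewer cells of a type and less RNA per cell cannot be told apart. None of 7 adipocyte markers was called with 6 mice and 3 were called lower without NCD replicate 1, with medians of -0.31 and -0.74. The part of these cell types in the members' values was not tested. The ratios that follow set each member beside the macrophage markers and are not such a test.

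Each member was then set against the mean log2 count of the 10 macrophage markers in the same library. *Hmox1* stood at -0.92, -0.63 and -0.59 log2 units from that mean in NCD and -0.85, -0.48 and -0.34 in HFD. The diets overlapped, with a difference of 0.16 (exact permutation p = 0.4, n = 3 each), and 0.06 without NCD replicate 1. Against the median of the markers the difference was -0.12. *Slc11a1* stood at -1.83, -1.15 and -1.42 in NCD and -0.41, -0.81 and -0.77 in HFD. It was higher relative to the markers in every HFD mouse, by 0.81 log2 units (exact permutation p = 0.1, n = 3 each) and by 0.62 without NCD replicate 1. Against the median of the markers this difference was 0.53 (exact permutation p = 0.2, n = 3 each), so the diets no longer separated fully.

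The other 8 members were all lower relative to the macrophage markers in every HFD mouse, each at the smallest p the exact permutation test allows, 0.1. The markers themselves rose, at a median log2 fold change of 2.55, so a gene with no change between diets is lower by this measure. *Ncoa4* and *Steap4*, at edgeR log2 fold changes of -0.01 and -0.03, are such genes. The share of all genes that were lower in this way was not computed. The difference was -1.42 log2 units for *Ftl1*, -1.55 for *Fth1* and -1.47 for *Slc40a1*. It was larger for *Steap4* (-2.05), *Ncoa4* (-2.25), *Trf* (-2.80), *Tfrc* (-3.06) and *Slc11a2* (-3.21), the last being -2.25 without NCD replicate 1. The ferritin genes were thus higher in HFD per library and lower per macrophage marker.

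**Figure D4:**
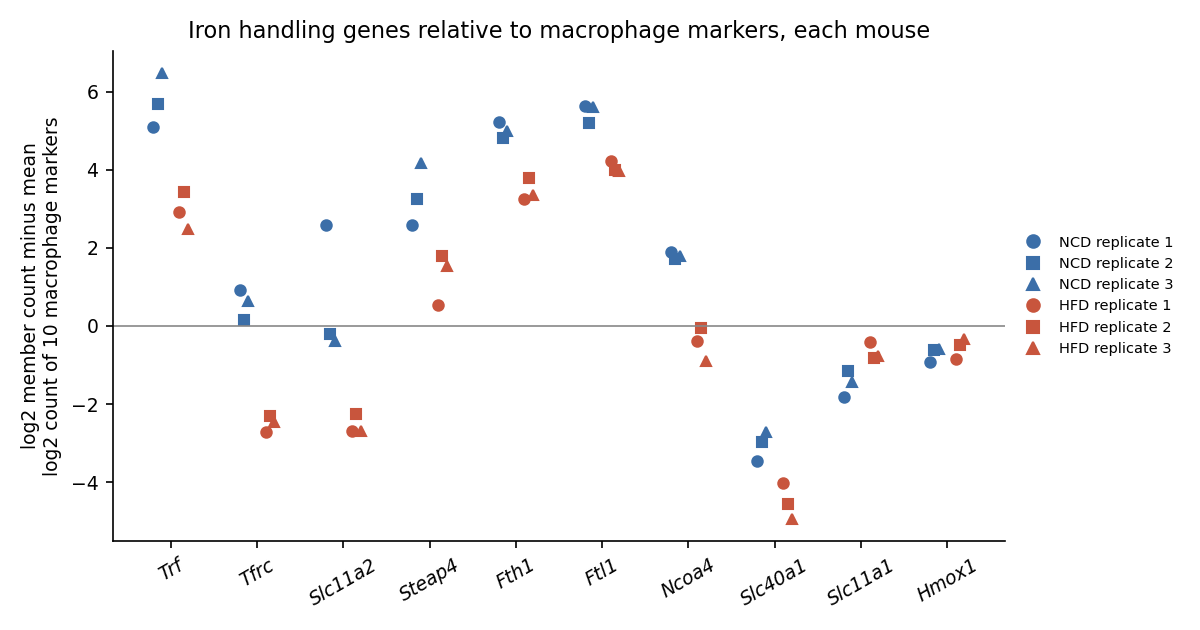
The log2 level of each of the 10 genes relative to the mean of 10 macrophage markers is plotted for each library. *Hmox1* overlaps between NCD and HFD, *Slc11a1* is higher in every HFD mouse, and the other 8 genes are lower in every HFD mouse.

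Genes whose pattern over the 6 mice came closest to a member were found by the root mean square difference of log2 CPM after each gene was centred on its mean. *Hmox1* was closest to *Rab3il1* (0.0551 log2 units), *Ncf1* (0.0594) and *Fcer1g* (0.109), and *Slc11a1* to *Tlr8* (0.112), *Cd300ld* (0.118) and *Atp8b4* (0.122). Genes close to *Ftl1* included *Tmem97* (0.0731) and *Npc2* (0.102). *Fth1* lay nearest to *Slc39a1*, *Rfc3* and *Mtmr11*, *Tfrc* to *Zfp160*, *Polg2* and *Cox7b*, *Slc40a1* to *Pole*, *Gper1* and *Coro2b*, *Trf* to *Tpmt*, *Has3* and *Ptp4a1*, and *Ncoa4* to *Arhgef40*, *C1qtnf7* and *Nfe2l1*. The nearest genes of *Slc11a2* were *Hip1r* (0.0415), *Qars* (0.05) and *Lig3* (0.0707), which share with it the high value in NCD replicate 1. *Steap4* had the least close neighbours, *Adamts1* (0.137), *Nrn1l* (0.160) and *Slc1a3* (0.164). With 6 points a close match is a description of these mice.

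The wider iron pathway was read from 49 further genes in 6 lists, of which 48 were in the table and 44 were tested. The hormone genes *Hamp* and *Hamp2* and the hepcidin regulators *Hjv* and *Tmprss6* were too low to test with 6 mice. With 6 mice, 1 of the 44 passed, *Bach1*, the heme-sensing repressor of *Hmox1*. It reached 30.9, 40.9 and 42.9 CPM in NCD and 75.0, 87.0 and 125 CPM in HFD, and it rose by 1.32 log2 units (SE 0.247, edgeR adjusted p = 0.0357), or 1.21 (edgeR adjusted p = 0.0255) without NCD replicate 1. Leaving out NCD replicate 2 or 3, or any HFD mouse, ended the call, as it did for most genes called with 6 mice. At an unadjusted p of 0.05, 19 of the 44 passed, beside 4524 of all 15241 genes. The median log2 fold change was 0.31 beside -0.08 over all genes.

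Without NCD replicate 1, 13 of 45 wider genes passed, 7 higher and 6 lower, beside the 20.9% of all genes called in that fit. The calls, log2 fold changes and adjusted p that follow are from that fit, unless 6 mice are named. CPM values by mouse keep the TMM scaling of all 6 libraries. The cytosolic aconitase *Aco1*, which is iron regulatory protein 1 when it lacks its iron-sulfur cluster, fell by 1.53 log2 units (edgeR adjusted p = 0.00833). It was at 105, 363 and 400.1 CPM in NCD and 147, 143 and 104 CPM in HFD, so the mouse left out was as low as the HFD mice. *Ireb2*, which encodes iron regulatory protein 2, was not called, with a log2 fold change of -0.14, and neither was *Fbxl5*, the ligase that removes that protein, at 0.98.

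Of the ferroxidases, which oxidise exported iron so that transferrin can bind it, *Heph* and *Hephl1* were called lower. *Heph* was at 130.0, 147 and 139 CPM in NCD and 75.6, 46.1 and 29.3 CPM in HFD, a log2 fold change of -1.50 (edgeR adjusted p = 0.0414). *Hephl1*, at 0.426 to 4.43 CPM in NCD and 0.455 to 0.892 CPM in HFD, gave -2.15 (edgeR adjusted p = 0.0345). Every HFD mouse was below every NCD mouse for *Heph*, while *Hephl1* overlapped because of NCD replicate 1. *Cp*, ceruloplasmin, was not called at -1.04. In the export list 2 of 5 tested genes were called lower and 0 higher, where 10.1% and 10.7% of all genes were, and 0 of 4 were called with 6 mice.

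Of the 11 heme genes 4 were called higher and 1 lower without NCD replicate 1. Of the 7 genes of the NRF2 and BACH1 list, 2 were called higher and 1 lower. In the same fit 10.7% of all genes were called higher and 10.1% lower. With all mice, 0 of the 11 heme genes were called, and 1 of the 7 genes of the NRF2 and BACH1 list was called, *Bach1*, which was higher. *Lrp1*, a receptor that takes up hemopexin-bound heme among many other ligands, was at 287, 695 and 561 CPM in NCD and 1243, 1516 and 1258 CPM in HFD (log2 fold change 1.11, edgeR adjusted p = 0.0238). The heme exporter *Flvcr1* rose by 1.08 (edgeR adjusted p = 0.0240) and biliverdin reductase *Blvra*, the enzyme after heme oxygenase, also rose by 1.08 (edgeR adjusted p = 0.0367). *Slc46a1*, a folate transporter that also carries heme, fell by 0.99 (edgeR adjusted p = 0.0289), from 11.8 and 11.7 CPM to 4.53 to 6.72 CPM. The remaining called gene of this list was *Hmox2*, the constitutive heme oxygenase, outside the naming rule and chosen after its values were seen, at 50.1 and 48.3 CPM in NCD and 63.5 to 72.1 CPM in HFD. *Blvrb*, the other biliverdin reductase of the list, was not called (log2 fold change 0.20, edgeR adjusted p = 0.227).

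In mitochondria, mitoferrin 1 (*Slc25a37*), which imports iron, rose by 1.15 (edgeR adjusted p = 0.0159), and *Alas1*, the first enzyme of heme synthesis, fell by 1.01 (edgeR adjusted p = 0.0234). *Alas1* was at 96.6, 257 and 374 CPM in NCD and 173, 148 and 146 CPM in HFD, so the NCD mouse left out was below every HFD mouse, and with 6 mice the log2 fold change was -0.64 (edgeR adjusted p = 0.395). *Slc25a37* stood at 27.3 and 32.9 CPM in NCD replicates 2 and 3 and at 57.0 to 79.2 CPM in HFD, with NCD replicate 1 at 55.0 CPM. Of the NRF2 and BACH1 list, *Bach1* and *Srxn1* (0.56, edgeR adjusted p = 0.0346) were higher. *Gclm*, named after its values were seen, was lower at 39.5 and 37.6 CPM in NCD against 25.2 to 27.7 CPM in HFD, while *Nqo1*, a standard NRF2 target, was not called at -0.35. Calls in this list thus went both ways. None of 11 further uptake and reduction genes passed in either fit.

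**Figure D5:**
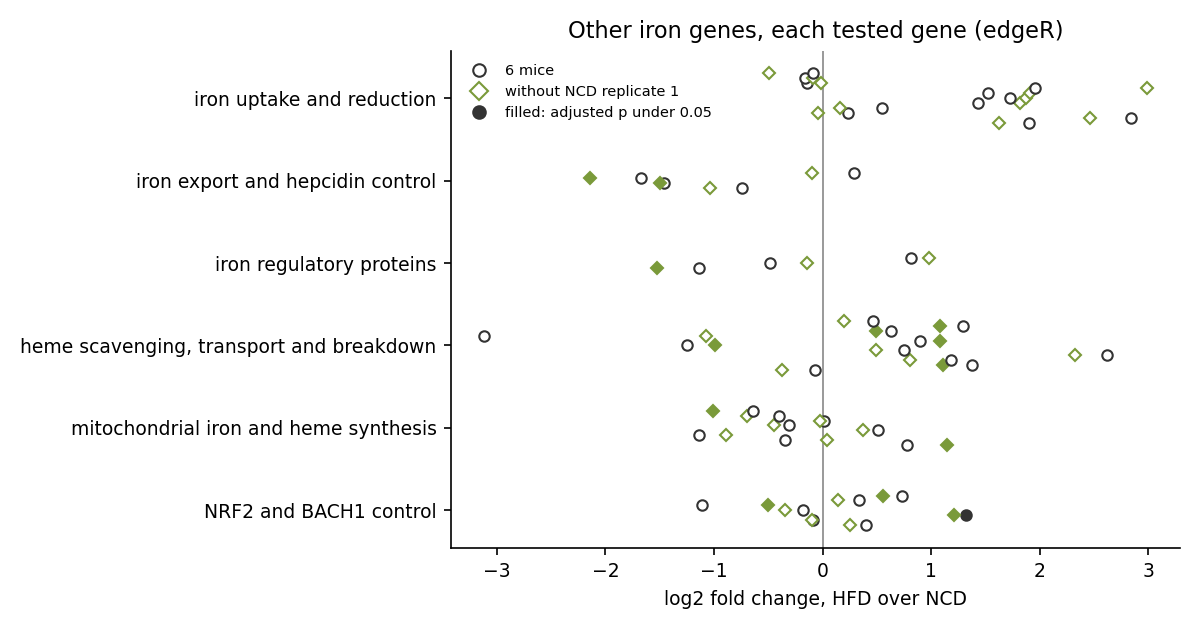
Log2 fold changes of HFD over NCD are plotted for each tested gene of 6 further iron lists, as circles for 6 mice and diamonds without NCD replicate 1, filled where the edgeR adjusted p was under 0.05. *Bach1* (1.32) is the filled circle, and the 13 filled diamonds lie on both sides of 0.

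Hemoglobin in residual blood is another source of iron gene transcripts. A list of 7 red blood cell genes summed to 124 to 411 CPM in NCD mice and 253 to 316 CPM in HFD mice, the HFD values lying within the NCD range, and none of the 6 tested was called by edgeR in either fit.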

How the data were processed

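Messenger RNA of gWAT was sequenced from 6 mice (TruSeq Stranded mRNA LT kit). The authors deposited raw read counts per gene, 1 column per mouse, by NCBI gene identifier, with no normalization. The submitters' processing notes name bcl2fastq 2.20.0, Trimmomatic, HISAT2 2.1.0, StringTie 1.3.4d and DESeq2, and mm10/GRCm38. The sources read here do not state the strand setting of counting or the treatment of multi-mapping reads. Symbols matched 19742 of 19790 identifiers, and the 48 without a symbol held 0.629% of counts.

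Low genes were removed by filterByExpr (at least 10 counts, total of at least 15). TMM factors scaled the rest, and edgeR 4.0.16 in R 4.3.3 gave quasi-likelihood F-tests, with Benjamini-Hochberg adjustment over all genes and a threshold of 0.05. The common biological coefficient of variation was 0.424. Alternatives were no filter, median-of-ratios or total-count scaling, secretory genes removed before scaling, DESeq2 1.42.0, a replicate block and leaving out each mouse. Ratios used raw counts and two-sided exact permutation tests. The pipeline was tested on simulated data. Libraries are separate mice, and no 2 agreed within sampling noise. Hairpin sites were read from GENCODE vM21 transcripts, with FPKM lengths from the same annotation. Amino acid sequences were not used here.

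Members and gene lists were chosen with earlier results of these data known. Genes named were the 10 members, the wider iron genes past the threshold with 6 mice, the 10 with the largest change among those past it without NCD replicate 1, and each member's 3 nearest genes, except that 1 for *Ftl1* is not reported here. Other genes named for their role in a list, such as *Ireb2*, *Cp*, *Blvrb* and *Nqo1*, were added after their values were seen.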

Additional observations from a re-analysis of the deposited data

How the results depend on the processing

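Members past the threshold numbered 2 with 6 mice, 5 by DESeq2, 0 with the replicate block and 0 to 3 when each mouse was left out in turn. Wider iron genes numbered 1, then 3 by total counts alone, 13 by DESeq2, 0 with the replicate block and 0 to 13 when each mouse was left out. All genes numbered 1139, then 3853 by DESeq2, 12 with the replicate block and 2 to 3234 when each mouse was left out, highest without NCD replicate 1. The 5 members by DESeq2 included *Tfrc* (adjusted p = 0.00498), *Fth1* and *Ftl1*. With the block, *Hmox1* had an edgeR adjusted p of 0.0675 and *Slc11a1* of 0.0822. The correlations of same-numbered mice were -0.0569 to 0.00899, and those of differently numbered mice -0.052 to 0.0748. The sources read here state no pairing, and with 3 mice a group these values cannot exclude one. The block and these correlations used the replicate numbers of the sample titles. The deposited count column of HFD replicate 3 carries a different number, so its match to NCD replicate 3 is uncertain.

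Of 120 member fold changes under alternatives, 12 reversed, all in *Steap4* and *Ncoa4*, and 8 of 10 members kept their direction in all 12. *Steap4* ranged from -0.44 to 0.61 when each mouse was left out and gave 0.29 by total counts alone, 0.21 with the replicate block, 0.61 without NCD replicate 3 and 0.22 without HFD replicate 1. *Ncoa4* ranged from -0.20 to 0.15 and gave 0.003 with no filter, 0.40 by total counts alone, 0.011 with secretory genes removed, 0.0 by DESeq2, 0.009 with the block, 0.11 without NCD replicate 2 or 3 and 0.15 without HFD replicate 3. Under total-count scaling the median over all genes went from -0.08 to 0.45, so both values by that scaling lie below that median. The log2 difference in the *Fth1* to *Ftl1* ratio ranged from -0.33 to 0.06 when each mouse was left out, turning without HFD replicate 1, and *Hmox1* relative to the median macrophage marker to -0.12. The other 31 of 32 ratio values and 89 of 90 marker-relative values kept their direction. The causes were not tested. With 3 mice a group and secretory RNA in every NCD library, diet and that RNA cannot be told apart.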
